A study of Mus musculus with 42 samples.

Results

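The genes described here are 10 members of the Hippo pathway and its transcriptional output: the cofactors Yap1 and Wwtr1 (which encodes Taz), their DNA-binding partner Tead1, the junction proteins Amot and Amotl2, the scaffold Nf2 (Merlin), the kinases Stk3 and Stk4 (the Mst kinases) and the kinases Lats1 and Lats2. They were chosen by name. All 10 were listed among the 24083 genes of a table of embryo stages and among the 23986 genes of a table of morulae, and Amot, the only X-linked member, was also among the 1052 genes of a table of X-linked genes. Expression was measured by Smart-seq2, a full-length poly(A) RNA method that does not keep the strand, in 42 mouse embryo samples, and each gene had a maternal and a paternal value, both as FPKM (read fragments scaled to transcript length and library size).

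All embryos had PWK/PhJ fathers. The stage table held wild-type female C57BL/6N X PWK/PhJ embryos. Before implantation these were 3 samples of 8-cell embryos, 3 of morulae and, from E3.5 blastocysts, 2 of inner cell mass and 3 of trophectoderm. After implantation they were 1 sample of epiblast, 3 of visceral endoderm and 2 of extraembryonic ectoderm, all at E6.5, and 1 of yolk sac at E9.5. The morula table held the same cross: control males (4), control females (3) and Xp XRRa KO females (4), in which a region named XRRa was deleted on the paternal X chromosome. The X-linked table held EedmNull extraembryonic ectoderm of 13 female embryos at E7.5, from Eed fl/fl mothers with Gdf9-Cre, which acts in the oocyte, so that the egg lacks the Polycomb gene Eed while the wild-type father supplies a copy. The cross ran in 1 direction, so parent of origin and strain cannot be told apart. In the stage and morula tables each group was 1 column per allele that pools its samples, so these columns carry no spread between embryos and no difference between them was tested.

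In the Hippo pathway, Stk3 and Stk4 activate the Lats kinases, and Lats phosphorylation keeps Yap and Taz out of the nucleus. In the nucleus Yap and Taz bind Tead factors and switch on their targets. In the preimplantation mouse embryo the pathway is known for separating the first lineages: outer, polarized cells have nuclear Yap and become trophectoderm, while in inner cells Amot and Nf2 at cell contacts help activate Lats. Tead4 is the Tead factor best known for this role. RNA level does not report phosphorylation or location of these proteins.

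To show where Tead factors could bind at the cofactor genes and at Amotl2, a known Yap target, the 250 bases before each RefSeq transcription start were searched for GGAATG, the core Tead motif, on both strands (CATTCC on the other). RefSeq sequences on GRCm38.p6 were matched for 8 of the 10 genes; Stk3 and Tead1 were not matched. The letters were present at Yap1, Wwtr1 and Amotl2, and absent at Amot, Nf2, Stk4, Lats1 and Lats2. Of all 32851 windows of this length, 12.6% held them. The 30 bases around each match are shown 5′ to 3′ on the gene's strand, with the motif in capitals.
Yap1 (chr9:8004720-8004749, minus strand): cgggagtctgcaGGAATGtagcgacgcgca
Wwtr1 (chr3:57576029-57576058, minus strand): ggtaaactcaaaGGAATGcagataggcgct
Amotl2 (chr9:102717727-102717756, plus strand): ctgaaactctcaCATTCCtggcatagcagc
The match began 141 bases before the start of Yap1, 136 or 170 before the 2 listed starts of Wwtr1 and 65 before that of Amotl2. Of the 250 bases, 136 at Amotl2, 17 at Yap1 and 0 or 34 at Wwtr1 lay in exons annotated by GENCODE. Whether a match lies in such an exon was not tested. A match describes letters only and is not a shown binding site.

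Amot is the member whose level varied most, so its window is shown in full, with no match to mark.
Amot (chrX:145487640-145487889, minus strand): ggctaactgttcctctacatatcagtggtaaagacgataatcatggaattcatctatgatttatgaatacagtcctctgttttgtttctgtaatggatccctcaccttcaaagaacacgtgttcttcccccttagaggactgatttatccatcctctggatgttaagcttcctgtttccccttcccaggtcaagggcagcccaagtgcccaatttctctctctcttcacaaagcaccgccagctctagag
It held 3 CpG dinucleotides, against 44 in the Yap1 window and 21 in the Amotl2 window, and its GC content was 44.8%, against 76.4% and 70.4%. The windows of the second listed starts of Nf2 (33.6% GC, 2 CpG) and Lats2 (44.8% GC, 4 CpG) were similarly poor in CpG.

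The blastocyst and E6.5 columns carried the markers of their labels, with markers of other tissues beside them. Summed FPKM of 6 pluripotency markers was 787 in inner cell mass and 119 in trophectoderm, and of 8 trophectoderm markers 1361 and 4869, so each column also held markers of the other tissue. The 6 visceral endoderm markers summed to 2713 FPKM in visceral endoderm, 235 in extraembryonic ectoderm, 3.16 in epiblast and 5741 in yolk sac. For 6 epiblast markers the sum was 1237 in epiblast, 526 in extraembryonic ectoderm and 308 in visceral endoderm. Of these only Fgf5 was higher in visceral endoderm (91.9 FPKM) than in epiblast (60.8). For 6 extraembryonic ectoderm markers it was 324 in their tissue, 61.2 in visceral endoderm and 9.30 in epiblast. For 4 mesoderm and streak markers it was 110 in visceral endoderm, 54.5 in extraembryonic ectoderm and 3.78 in epiblast. The yolk sac column was sparse, with 4506 genes above 0 against 10744 to 15106 in the other columns of its table. FPKM gave no read counts, so depth was unknown. Differences between columns were called by a fixed rule of size: 1 of the columns had to reach 5 FPKM, and the columns had to differ 2-fold or more after adding 1 FPKM to each. Log2 ratios below are on FPKM plus 1, and folds are plain ratios of FPKM.

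Levels across stages are given first, starting with the cofactors. Yap1 had 2.88 FPKM at the 8-cell stage, 4.80 at the morula stage, 4.4 in inner cell mass, 5.36 in trophectoderm, 5.73 in epiblast, 16.3 in visceral endoderm, 6.57 in extraembryonic ectoderm and 11.5 in yolk sac. Visceral endoderm was the highest column, and the columns from morula to extraembryonic ectoderm were otherwise within 4.4 to 6.57 FPKM. Wwtr1 had 8.00 FPKM at the 8-cell stage, 21.9 at the morula stage, 23.3 in inner cell mass, 13.4 in trophectoderm, 1.06 in epiblast, 5.68 in visceral endoderm, 7.51 in extraembryonic ectoderm and 8.19 in yolk sac. The 2 cofactor genes were thus ordered differently. Per length, as FPKM, Wwtr1 had the higher level in all 4 preimplantation columns and in extraembryonic ectoderm, and Yap1 in epiblast, visceral endoderm and yolk sac. The treatment of reads that cannot be assigned to an allele is not given, so levels of different genes may not be directly comparable. Tead1 had 1.29 FPKM at the 8-cell stage, 1.47 at the morula stage, 2.37 in inner cell mass, 5.81 in trophectoderm, 1.53 in epiblast, 9.94 in visceral endoderm, 5.84 in extraembryonic ectoderm and 11.8 in yolk sac.

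Of the junction proteins, Amot ranged furthest. It had 1.63 FPKM at the 8-cell stage, 3.19 at the morula stage, 2.75 in inner cell mass, 2.16 in trophectoderm, 1.05 in epiblast, 338 in visceral endoderm, 32.1 in extraembryonic ectoderm and 14.2 in yolk sac. Visceral endoderm was the highest column and extraembryonic ectoderm the next, and no preimplantation column exceeded 3.19 FPKM. Its paralog Amotl2 had 1.04 FPKM at the 8-cell stage, 12.1 at the morula stage, 4.68 in inner cell mass, 26.7 in trophectoderm, 6.46 in epiblast, 17.3 in visceral endoderm, with 13.1 in extraembryonic ectoderm, and was listed at 0 in yolk sac. Trophectoderm was its highest column. Nf2, which acts with Amot at junctions, had 6.69 FPKM at the 8-cell stage, 12.5 at the morula stage, 12.7 in inner cell mass, 11.5 in trophectoderm, 3.58 in epiblast, 5.69 in visceral endoderm, with 9.56 in extraembryonic ectoderm, and was also listed at 0 in yolk sac.

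Of the kinases, Stk4 had between 5.64 FPKM (inner cell mass) and 11.1 (extraembryonic ectoderm), a 1.97-fold range over the 7 columns other than yolk sac, the narrowest of the members detected. Stk3 had 1.99 FPKM at the 8-cell stage, 5.08 at the morula stage, 12.9 in inner cell mass, 9.07 in trophectoderm, 4.27 in epiblast, 6.94 in visceral endoderm, 9.79 in extraembryonic ectoderm and 14.9 in yolk sac. Lats1 was low throughout: 2.19 FPKM at the 8-cell stage, 0.807 at the morula stage, 0.589 in inner cell mass, 0.550 in trophectoderm, 1.68 in epiblast, 3.96 in visceral endoderm, 1.13 in extraembryonic ectoderm and 6.33 in yolk sac. Lats2 was listed at 0 for both alleles in all 22 columns of both tables, as were 6277 of 23986 genes (26.2%). How reads that cannot be assigned to an allele were treated is not given in the sources used here, so this 0 is not read as absence of Lats2 RNA.

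**Figure D1:**
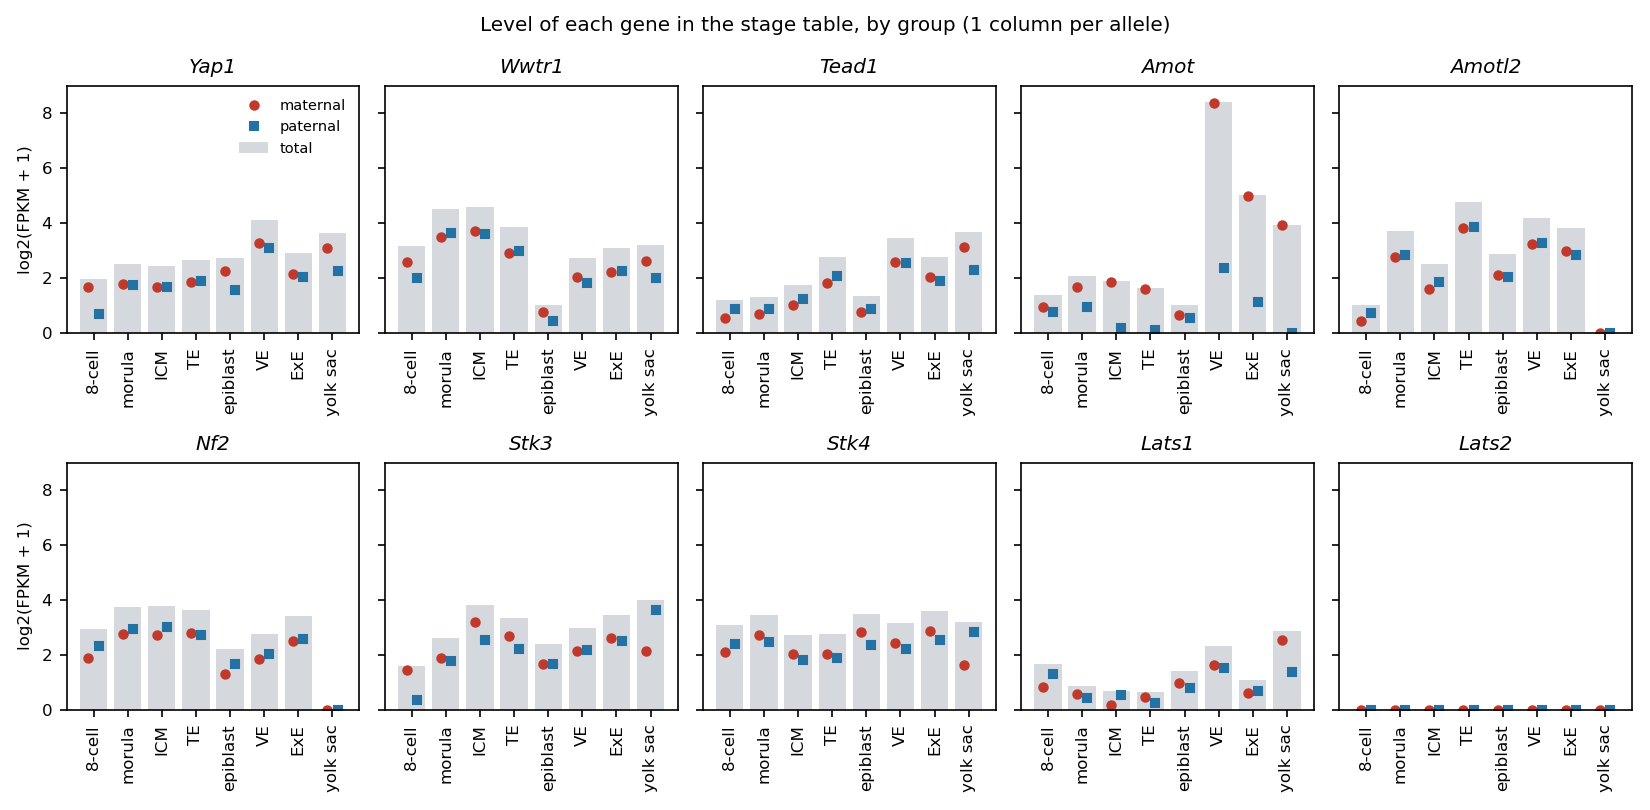
Level of each of the 10 genes in the 8 groups of the stage table, on a log2(FPKM + 1) axis that starts at 0; grey bars are the total of both alleles, red circles the maternal and blue squares the paternal allele, with 1 deposited column per allele and no error bars. Amot reached 338 FPKM in visceral endoderm (VE), almost all from the maternal allele, and Amotl2 was highest in trophectoderm (TE); Lats2 was at 0 throughout.

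From 8-cell embryo to morula, when the embryo compacts, Amotl2 differed most among the members: 1.04 and 12.1 FPKM (log2 ratio 2.68), with 2.33 from the maternal and 2.1 from the paternal allele. Wwtr1 (1.35) and Stk3 (1.02) were also at least 2-fold higher in morulae, so 3 of 10 members were called higher and none lower. Only 5 of the 10 reached 5 FPKM and could be called. Over all 5541 genes tested, 31.9% were called higher and 6.21% lower (38.1% in either direction), and the median of all genes tested was itself at 0.49. With ratios centred on that median only Amotl2 was called. Nf2 (0.81), Amot (0.68), Yap1 (0.58), Stk4 (0.37) and Tead1 (0.11) did not pass the rule, nor did Lats1, which was lower in morulae (-0.82). The median of the 9 members above 0 was 0.68, beside 0.19 for all 13512 genes above 0. Stk3 and Yap1 differed mostly on the paternal allele, from 0.288 to 2.38 FPKM for Stk3 and from 0.633 to 2.37 FPKM for Yap1, while their maternal alleles went from 1.70 to 2.70 and from 2.25 to 2.43 FPKM. Paternal FPKM at the 8-cell stage was thus the low value for both genes.

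Other genes of the pathway were taken from 3 lists. Here 7 of 22 core genes and regulators reached 5 FPKM and could be called. So did 7 of 10 polarity and adhesion genes and 8 of 10 Yap and Tead targets. The share of all genes tested that were called higher was 31.9%. Of 22 core genes and regulators, 3 were called higher in morulae and none lower: Vgll4 (1.53), a Tead-binding cofactor, Ajuba (1.38), a Lats-binding LIM protein, and Tead4 (1.35), which went from 17.2 to 45.2 FPKM. Of 10 polarity and adhesion genes 4 were higher, including E-cadherin (Cdh1, 5.88 and 43.3 FPKM, 2.69), Llgl1 (2.12) and Pard6b (1.47). Of 10 Yap and Tead targets 6 were higher, including Krt8 (3.21), Cdx2 (2.88), Ctgf (2.49) and Krt18 (2.24).

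Between the 2 tissues of the blastocyst, Amotl2 and Tead1 were lower in inner cell mass than in trophectoderm. Amotl2 had 4.68 and 26.7 FPKM, 5.71-fold more in trophectoderm (log2 ratio of inner cell mass to trophectoderm -2.29), and both alleles gave a similar ratio (-2.20 maternal, -2.02 paternal). Tead1 had 2.37 and 5.81 FPKM (-1.01). It lay at the threshold: each allele alone gave -0.81 and -0.86 and was not called. So 2 of 10 members were called lower and none higher, with 7 of the 10 at 5 FPKM or more, beside 11.8% lower and 13% higher (24.8% in either direction) among 6400 genes. The count is too small to set apart from that background.

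The members that did not pass leaned both ways. Wwtr1 was higher in inner cell mass (23.3 against 13.4 FPKM, 0.75), with ratios of 0.81 and 0.62 from the maternal and paternal alleles, and Stk3 likewise (12.9 against 9.07 FPKM, 0.46). Nf2 (0.13), Stk4 (-0.02), Yap1 (-0.24), Amot (0.25) and Lats1 (0.04) differed less. The median of the 9 members above 0 was 0.04, beside 0.05 for all 13075 genes above 0. Fewer cells of a type and less RNA per cell cannot be told apart in these columns.

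Within the wider pathway, the other Tead genes were also lower in inner cell mass, to differing degrees. Tead2 had 5.33 FPKM in inner cell mass and 23.3 in trophectoderm (-1.94), while Tead4 had 19.9 and 23.7 (-0.24). Tead3 had 0.191 and 3.71 FPKM (-1.98) and stayed below 5 FPKM, so it could not be called. In this comparison 9 of 22 core genes and regulators, 9 of 10 polarity genes and 8 of 10 targets could be called. Among the core genes and regulators 3 were lower in inner cell mass, Tead2, Limd1 (-1.58) and Vgll4 (-1.57), and the FERM-domain gene Frmd6 (1.12) was higher. Frmd6 differed on the maternal allele (1.81) and hardly on the paternal (0.12). Of the polarity genes Ezr, which encodes the membrane linker ezrin, was higher in inner cell mass (59.5 against 13.8 FPKM, 2.03) and Prkcz lower (-1.13). The targets split. Gata3 (-2.01), Krt18 (-1.58), Krt8 (-1.53) and Cdx2 (-1.46) were lower in inner cell mass, where Ctgf (112 against 8.80 FPKM, 3.52) and Cyr61 (31.0 against 7.53 FPKM, 1.91) were higher. Ctgf and Cyr61 encode matricellular proteins and are the most used readouts of Yap activity in cultured cells. Primitive endoderm markers also differed between these columns, with a sum over 5 genes of 59.6 FPKM in inner cell mass and 11.3 in trophectoderm, and their part in the result was not tested.

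**Figure D2:**
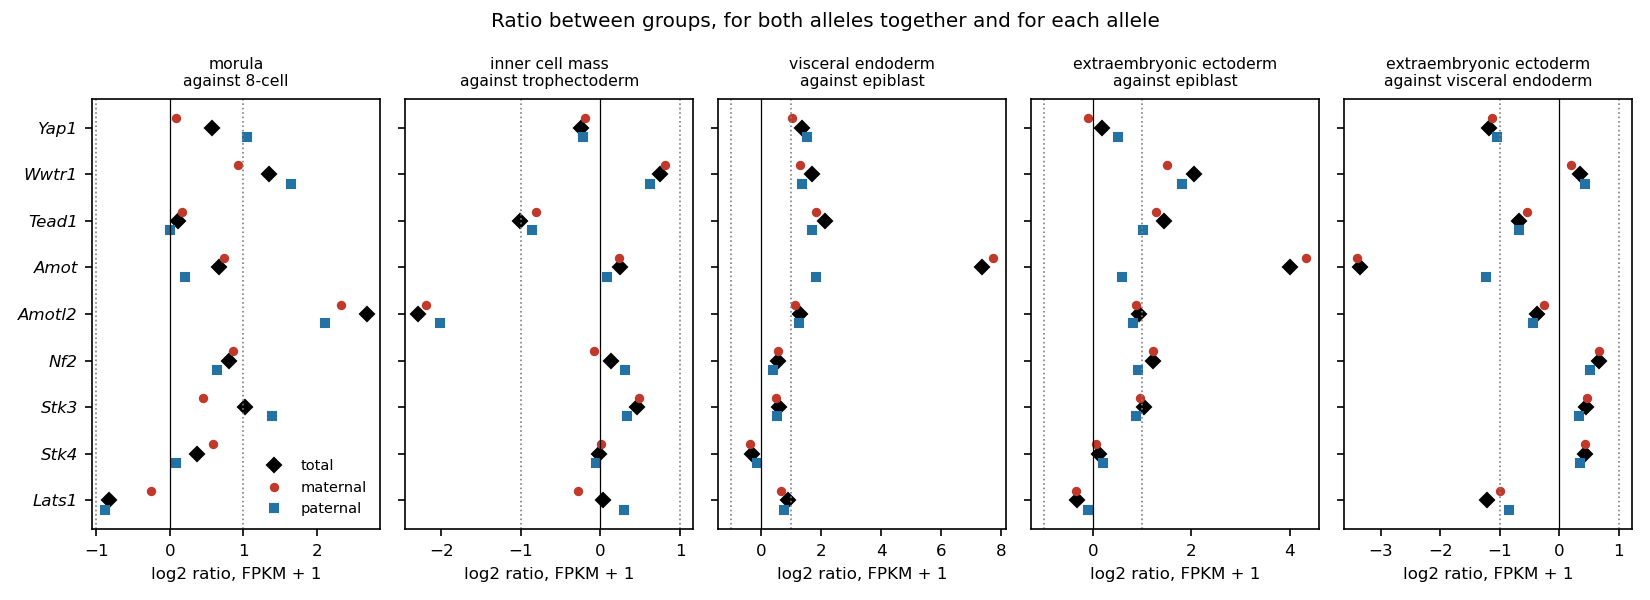
Log2 ratio on FPKM plus 1 for 9 genes (Lats2 was at 0) in 5 comparisons of the stage table; black diamonds are the total, red circles the maternal and blue squares the paternal allele, dotted lines mark 2-fold, and each panel has its own horizontal scale. Amotl2 was the farthest from 0 in the morula and inner cell mass panels, at 2.68 and -2.29, and Amot in the 3 panels of E6.5 tissues, where its maternal and paternal ratios lay apart.

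Among the 3 tissues at E6.5, epiblast had the lowest level of Yap1, Wwtr1, Tead1, Amot, Amotl2, Nf2 and Stk3. Visceral endoderm was at least 2-fold higher than epiblast in 5 of 10 members and lower in none, with 8 of the 10 at 5 FPKM or more, where 17.7% of 6286 genes were called higher and 18.7% lower (36.4% in either direction). The 5 were Amot (7.37), Tead1 (9.94 against 1.53 FPKM, 2.11), Wwtr1 (5.68 against 1.06 FPKM, 1.70), Yap1 (16.3 against 5.73 FPKM, 1.36) and Amotl2 (17.3 against 6.46 FPKM, 1.29). All 5 were called from each allele alone. Lats1 (0.89), Stk3 (0.59), Nf2 (0.55) and Stk4 (-0.32) did not pass. The median of the 9 members above 0 was 1.29, beside 0.02 for all 15318 genes above 0. The epiblast column is 1 sample, so embryo and tissue cannot be told apart in it. In the other lists 11 of 22 core genes, 8 of 10 polarity genes and 6 of 10 targets reached 5 FPKM. Of the other lists 4 of 22 core genes, 2 of 10 polarity genes and 4 of 10 targets were higher and none lower, among them the kinase genes Taok3 (3.12) and Map4k4 (1.10), the Lats cofactor gene Mob1b (2.01), Ezr (2.14), Krt8 (4.38) and Cyr61 (2.95).

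Extraembryonic ectoderm was also higher than epiblast in 5 of 10 members and lower in none, again with 8 of the 10 at 5 FPKM or more, beside 20% of 6500 genes higher and 6.25% lower (26.3% in either direction). These were Amot (4.01), Wwtr1 (7.51 against 1.06 FPKM, 2.05), Tead1 (5.84 against 1.53 FPKM, 1.43), Nf2 (9.56 against 3.58 FPKM, 1.21) and Stk3 (9.79 against 4.27 FPKM, 1.03). Centred on the median of all genes, 3 were called: Amot, Wwtr1 and Tead1. Amotl2 (0.92), Yap1 (0.17), Stk4 (0.11) and Lats1 (-0.33) did not pass. This comparison shares the epiblast sample with the one before it. The median of the 9 members above 0 was 1.03, beside 0.10 for all 15357 genes above 0. Tead4, a marker of the trophoblast lineage, had 13.9 FPKM in extraembryonic ectoderm and 0.0226 in epiblast, and Tead2 had 33.1 and 47.3. In each of the 3 other lists 7 genes reached 5 FPKM and could be called. Ajuba was lower in extraembryonic ectoderm (-1.18), as the only gene of the core list, of which 3 were higher; 3 of 10 polarity genes were higher and none lower, and of the targets 5 were higher and Ajuba, which is on both lists, lower.

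Between the 2 extraembryonic tissues Yap1 (6.57 against 16.3 FPKM, -1.19) and Amot (32.1 against 338 FPKM, -3.36) were lower in extraembryonic ectoderm than in visceral endoderm. No member was called higher, with 8 of the 10 at 5 FPKM or more. The background was 9.77% of 6767 genes lower and 26.6% higher (36.4% in either direction), with a median of 0.49 over the genes tested. Tead1 (-0.68) and Amotl2 (-0.37) were lower and Nf2 (0.66), Stk3 (0.44), Stk4 (0.43) and Wwtr1 (0.35) higher without passing, and Lats1 (-1.22) stayed below 5 FPKM in both columns. Centred on that median Tead1 was called lower too (-1.17). The median of the 9 members above 0 was -0.37, beside 0.04 for all 16127 genes above 0. Tead4 was higher in extraembryonic ectoderm (13.9 against 2.21 FPKM, 2.22) and Taok3 and Mob1b lower (-1.79 and -1.66). Of the polarity genes Cdh1 was higher (1.16) and Pard3 lower (-1.01), and of the targets Gata3 (4.02), Cdx2 (2.69) and Cyr61 (1.22) were higher and Ctgf lower (-1.42).

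The Amot value of extraembryonic ectoderm has to be read beside the visceral endoderm markers in that column. All 6 of those markers were above 1 FPKM there, at 6.37% (Cubn) to 10.5% (Amn) of their level in visceral endoderm, with a median of 9.03%. Amot was at 9.49% of its visceral endoderm level, within that range. The other 8 members above 0 were at 28.6% (Lats1) to 168% (Nf2). In epiblast Amot was at 0.311% of its visceral endoderm level, and the markers were at 0 (Cubn and Hnf4a) to 0.360% (Amn). The part of visceral endoderm cells in the Amot level of extraembryonic ectoderm was not tested. The genes most like Amot over the 8 columns, by Pearson r of log2(FPKM + 1) among 8354 genes, were Foxq1 (0.99), Sgce (0.98) and Fam89a (0.97). Those most like Yap1 were Snx27 (0.97), Phldb2 (0.96) and Alg10b (0.96), and for Lats2, with no variation, none could be given. These r values describe 8 columns that share normalization.

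**Figure D3:**
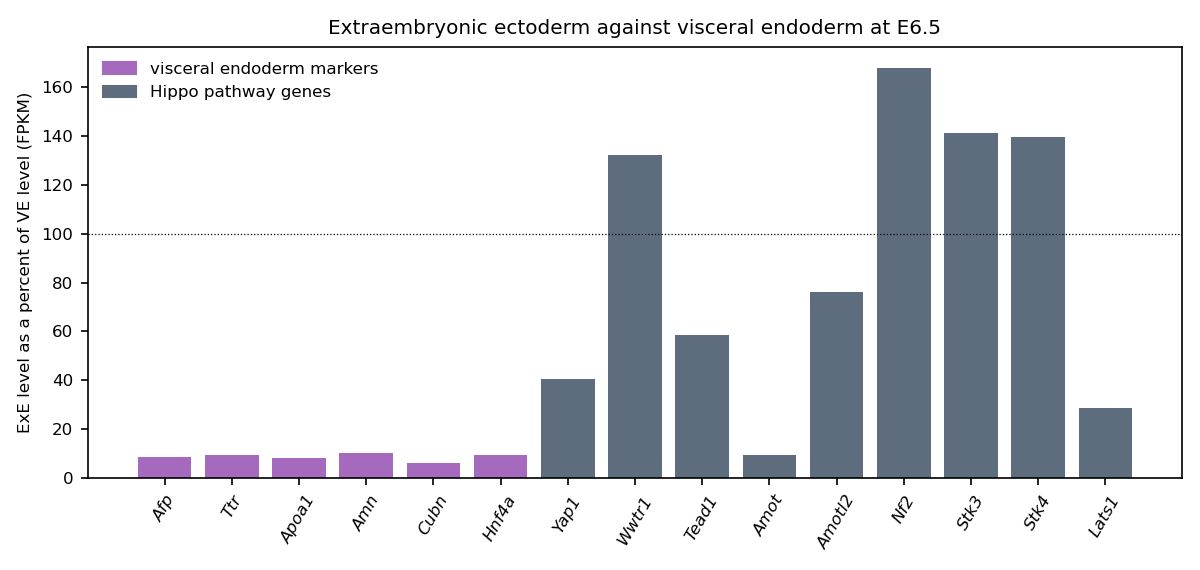
Level in E6.5 extraembryonic ectoderm (ExE) as a percent of the level in E6.5 visceral endoderm (VE), both in FPKM, for 6 visceral endoderm markers (purple) and 9 Hippo pathway genes (grey); the dotted line marks equal levels. Amot, at 9.49%, lies with the markers (6.37% to 10.5%), and the other pathway genes lie between 28.6% and 168%.

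The allelic values separated Amot from the other members. The paternal share is the paternal FPKM over the total, at a total of at least 1 FPKM. Over all 11 groups 92 such values of members were available, and 85 lay between 20% and 80%. These values include X-linked Amot. Of the autosomal members, 7 of 8 lay in that range at the 8-cell stage, and all with a share did in every other group. Over all autosomal genes, 84.4% to 96.7% lay in that range in each column other than yolk sac (48.1%). With at most 8 autosomal members in a group, the counts are too small to set apart from that background. The autosomal members had a median share of 57.7% at the 8-cell stage, 51.3% at the morula stage, 49.8% in inner cell mass, 50.4% in trophectoderm, 45.4% in epiblast, 48.4% in visceral endoderm, with 48.1% in extraembryonic ectoderm, beside 46.8% to 49.2% for all autosomal genes in those columns. At the 8-cell stage they ranged from 14.5% (Stk3) to 65.6% (Lats1), and in extraembryonic ectoderm from 43.6% (Stk4) to 52.3% (Lats1). In yolk sac, where 1115 of 4163 genes at 1 FPKM had no paternal FPKM, the 6 autosomal members ranged from 25.0% to 76.9%.

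Amot lay near the median of X-linked genes. Its paternal share was 42.7% in 8-cell embryos, beside a median of 42.6% for X-linked genes, and 30.1% in morulae beside 26.1%. In the blastocyst it was 5.0% in inner cell mass beside 8.49%, and 3.59% in trophectoderm beside 4.45%. At E6.5 it was 45.0% in epiblast beside 47.8%, 1.25% in visceral endoderm beside 0.607%, and 3.78% in extraembryonic ectoderm beside 4.73%. In the sparse yolk sac column it was 0% at a total of 14.2 FPKM, beside an X-linked median of 0%. Amot thus had a low paternal share in every tissue of the blastocyst and of the extraembryonic lineages, and a balanced one in epiblast at a total of 1.05 FPKM. In visceral endoderm the maternal allele gave 334 FPKM and the paternal 4.22, so the maternal ratio to epiblast was 7.73 and the paternal 1.82. The paternal FPKM there was nevertheless the highest paternal value of Amot in the table.

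**Figure D4:**
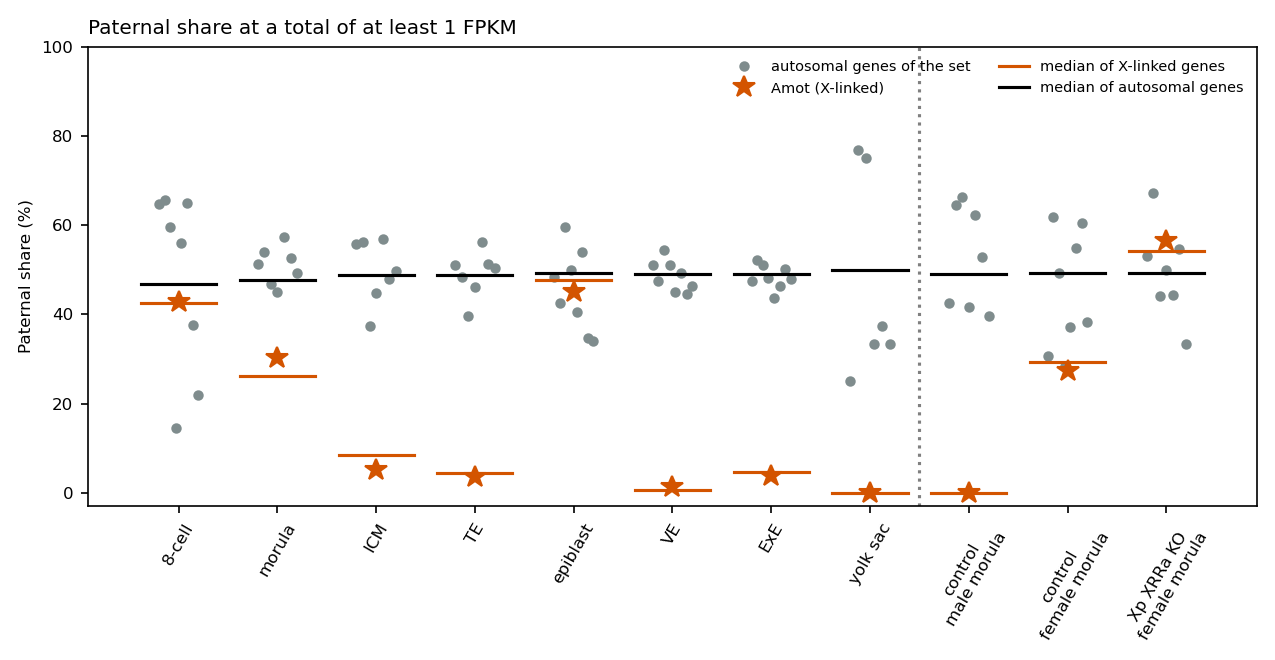
Paternal share of each gene at a total of at least 1 FPKM (vertical axis, percent) in the 8 groups of the stage table and, right of the dotted line, the 3 groups of the morula table; grey points are autosomal members, orange stars Amot, and orange and black lines the medians of X-linked and autosomal genes. Amot lies near the X-linked median in each group, for example at 42.7% in 8-cell embryos, 1.25% in visceral endoderm and 56.4% in Xp XRRa KO morulae. It is at 0% in yolk sac and in control male morulae.

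In the morula table, Amot had a paternal share of 27.2% in control females and 56.4% in Xp XRRa KO females, beside X-linked medians of 29.3% and 54.2%, and 0% in control males, which carry only a maternal X. The totals were 2.92 FPKM in control females, 3.38 in Xp XRRa KO females (log2 ratio 0.16) and 3.54 in control males. The maternal allele had 2.12 and 1.47 FPKM in control and Xp XRRa KO females, and the paternal 0.796 and 1.91.

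The autosomal members gave 1 call in that table. Nf2 had 2.68 FPKM in control females, 7.60 in Xp XRRa KO females (1.23) and 6.93 in control males (1.11). Its maternal allele alone gave 0.56 and 0.55 and was not called, and its paternal allele gave 1.40 and 1.24. It was the only member called in either comparison. Of the 10 members 5 reached 5 FPKM for Xp XRRa KO and 4 for males. Amot, Tead1, Stk3 and Lats1 stayed below 5 FPKM in all columns of that table, so they could not be called. The background was 4.28% of 5590 genes higher and 3.52% lower (7.8% in either direction) for Xp XRRa KO. For males it was 3% of 5562 genes higher and 2.73% lower (5.74% in either direction). Both comparisons share the control female column, which was the low one. The wild-type female morulae of the stage table, normalized separately, had 12.5 FPKM of Nf2. Stk4 had 4.19 FPKM in control females and 8.51 in Xp XRRa KO females (0.87), and 5.11 in control males. Wwtr1 had 11.4, 15.1 and 16.8 FPKM, Yap1 6.03, 4.08 and 6.71, Amotl2 4.97, 6.79 and 3.85, Stk3 2.39, 3.03 and 4.28, Tead1 1.32, 2.04 and 2.18, and Lats1 1.27, 0.627 and 0.540, in control females, Xp XRRa KO females and control males in that order; none of them passed the rule. The median of the 9 members above 0 was 0.38 for Xp XRRa KO and 0.24 for males, beside 0.06 for all genes above 0 in each. No core or polarity gene was called in either comparison. In each, 5 of 22 core genes, 9 of 10 polarity genes and 7 of 10 targets reached 5 FPKM. Of the targets Ctgf (-1.03) and Krt18 (-1.39) were lower in Xp XRRa KO morulae, and Ctgf was lower (-1.61) and Krt8 higher (1.40) in males.

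Female morulae, wild-type in the stage table and labelled control in the morula table, give a measure of how far the same stage can differ here. Amotl2 (12.1 FPKM in the stage table and 4.97 in the morula table, 1.13), Nf2 (12.5 and 2.68, 1.87) and Stk4 (10.04 and 4.19, 1.09) were called higher in the stage table. These were 3 of 10 members, of which 6 reached 5 FPKM and could be called. Over the 5862 genes tested, 18.3% were called higher and 11% lower (29.3% in either direction), and their median was itself at 0.33. Amotl2 and Stk4 passed the 2-fold line by less than that median, and Nf2 by more. No call centred on that median was made for this comparison. Summed FPKM of the 8 trophectoderm markers was 238 in the stage-table morulae, 725 in control females, 448 in Xp XRRa KO females and 1302 in control males. In control females Krt18 (367 FPKM, against 59.8 in stage-table morulae), Krt8 (182 against 29.2) and Id2 (78.9 against 14.9) were higher. Tfap2c (35.1 against 63.2) and Eomes (2.35 against 7.06), with Gata3, Cdx2 and Gata2, were lower there. The marker sums differed between morula columns, and their part in the Nf2 and Amotl2 values was not tested.

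In EedmNull extraembryonic ectoderm, each embryo had its own columns, so Amot could be given with its spread. Its total ranged from 0.557 to 14.3 FPKM over 13 embryos, with a median of 1.43. Embryo 6 was the highest, and embryos 7 and 12 followed at 4.60 and 4.50 FPKM. The maternal allele ranged from 0.346 to 5.85 FPKM (median 1.25) and the paternal from 0.0295 to 8.49 (median 0.415). The paternal allele was the higher in 4 embryos and the maternal in 8, with equal values in 1. None of the 6 visceral endoderm markers is in this table, so they could not be set beside the Amot level. Wild-type E6.5 extraembryonic ectoderm, another stage in a separately normalized table, had 32.1 FPKM.

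The log2 ratio of paternal to maternal Amot, on FPKM plus 1, had a mean of -0.27 (SE 0.18, n = 13), with an adjusted p of 0.194 by limma over 300 X-linked genes. The interval of 2 SE ran from -0.63 to 0.09. The same fit called 28 of the 300 genes (9.33%), of which 27 had the lower value on the paternal allele, and the median ratio over all 300 was -0.75. Adding 1 FPKM, near the level of Amot itself, draws its ratio towards 0. With 0.1 FPKM added instead, the mean of Amot was -0.81 (SE 0.42, adjusted p 0.105 by limma). The median over all genes was then -1.42. The fit called 12 of 579 genes with no minimum level and 3 of 299 in the 8 embryos with at least 1 FPKM of Amot. The embryos differed widely in the X-linked median share, from 0% to 80.6%. In the 8 embryos with at least 1 FPKM of Amot, its share was 37.6% ± 20.7 (SD, n = 8), from 6.49% to 59.2%, and it was above the X-linked median of the same embryo in 5 of 8. Across those 8 embryos the Amot share and the X-linked median gave Pearson r = 0.76 (exact permutation p = 0.0256, adjusted 0.0513) and Spearman rho = 0.69 (exact permutation p = 0.0694, adjusted 0.0694), both two-sided and adjusted over the 2 coefficients of this 1 relation, and neither passed 0.05 after adjustment. Embryo 6 had an Amot share of 59.2% at an X-linked median of 25.8%. Without the 2 embryos farthest from the median of the X-linked share r was 0.58 (exact permutation p = 0.236) and rho 0.54 (exact permutation p = 0.297), with 6 embryos left. With all 13 embryos, Amot below 1 FPKM included, r was 0.78 (permutation p = 0.00274), a setting chosen after seeing the data.

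**Figure D5:**
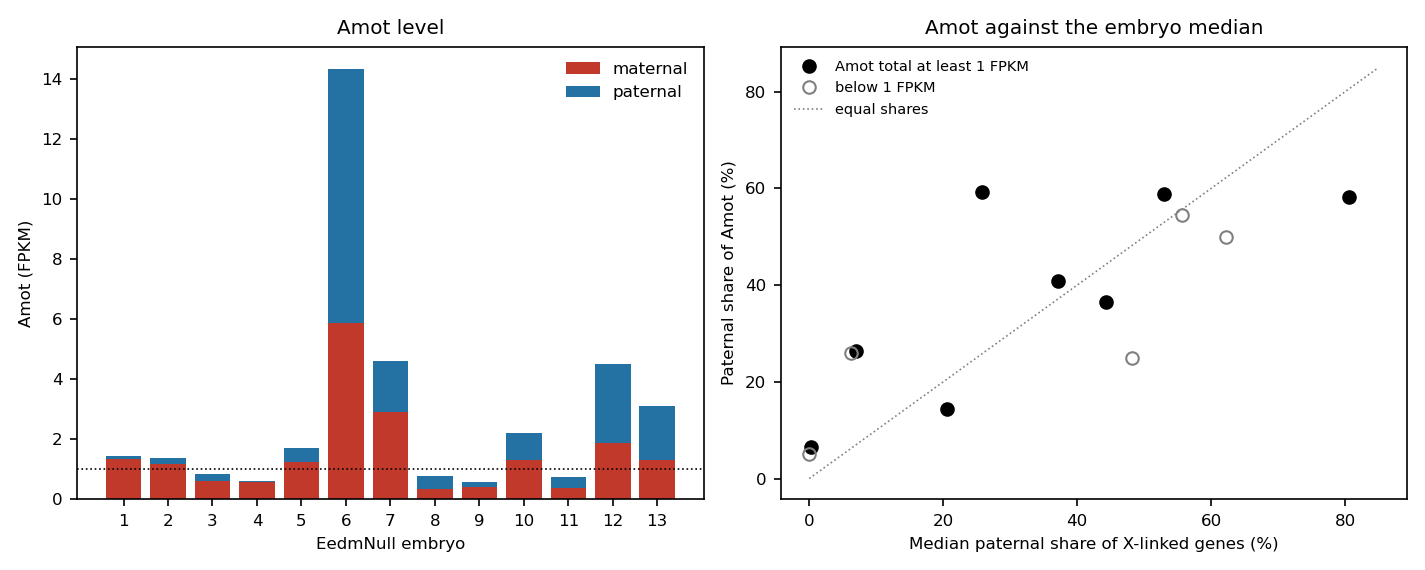
Amot in 13 EedmNull extraembryonic ectoderm samples. Left, FPKM per embryo, stacked by allele (maternal red, paternal blue; dotted line at 1 FPKM); right, paternal share of Amot against the median paternal share of X-linked genes in the same embryo, both in percent, with open circles for embryos under 1 FPKM of Amot. The total ran from 0.557 to 14.3 FPKM, and the Amot share ran from 6.49% to 59.2% among the 8 embryos with at least 1 FPKM (filled circles).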

How the data were processed

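The values are FPKM per allele, as deposited by the authors. Tools named in the submitters' processing notes, with no role given, are HISAT2 2.2.0, StringTie 2.1.1 and Trim Galore 0.6.4, and the build is mm9; how reads were assigned to alleles is not given in the sources used here. From these, totals (maternal plus paternal), paternal shares, log2 ratios on FPKM plus 1 and calls by the rule of size were computed for all genes, and 5 summary lines were left out. Members and gene lists were chosen with earlier results of these data known. All members are named, and up to 4 genes per other list and comparison. Chromosomes came from a RefSeq table of GRCm38.p6, matched by name for 23968 of 24083 genes; no coordinate of it was set against mm9. EedmNull log2 ratios were fitted with limma 3.58.1 (R 4.3.3) over X-linked genes with a mean total of at least 1 FPKM, Benjamini-Hochberg adjusted at 0.05. Their titles name separate embryos. Permutation tests were exact, or used 100000 resamples with seed 7 for 13 embryos. The call rule and the limma fit were tested on simulated data. Computation used scipy 1.17.1 and numpy 2.4.6 under Python 3.11.15, with tables in pandas 2.3.3 and plots in matplotlib 3.10.9. The alternatives were another pseudocount, minimum, centring, allele and set of embryos.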

Additional observations from a re-analysis of the deposited data

How the results depend on the processing

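No paired analysis was possible because the stage and morula tables pool the samples of a group into 1 column per allele, and the EedmNull embryos form 1 group; for the same reason no sample could be left out. With a pseudocount of 0.1 FPKM the count of members called was 2 for Xp XRRa KO against control female morulae (1 as reported, with Stk4 gained) and 6 for extraembryonic ectoderm against epiblast (5, with Amotl2 gained). With a minimum of 1 FPKM or none it was 3 for extraembryonic ectoderm against visceral endoderm (2, with Lats1 gained). With ratios centred on the median of all genes it was 1 for morula against 8-cell (3 as reported) and 3 for extraembryonic ectoderm against epiblast (5), and 3 for extraembryonic ectoderm against visceral endoderm (2, with Tead1 gained). From the maternal allele alone it was 1 for inner cell mass against trophectoderm (2), 1 for morula against 8-cell, 4 for extraembryonic ectoderm against epiblast (without Stk3) and 0 for Xp XRRa KO and for control males against control females (1 each). From the paternal allele alone it was 1 for inner cell mass against trophectoderm, 2 for extraembryonic ectoderm against epiblast and 2 for Xp XRRa KO. With a minimum of 5 FPKM, 52 of 55 member shares lay between 20% and 80%, a smaller number because fewer values reach the minimum. The correlation of Amot with the X-linked median was 0.78 (permutation p adjusted 0.00548) with all 13 embryos and ranged from 0.58 to 0.76 otherwise; with a minimum of 5 FPKM for Amot 1 embryo was left and no value could be given. Amot was not among genes with a mean total of at least 5 FPKM. Under the other 4 alternatives its allele ratio in EedmNull embryos stayed between -0.81 (pseudocount of 0.1 FPKM) and -0.27. The p ran from 0.0654 by sign flips to 0.413 adjusted by limma. Over all X-linked genes the EedmNull fit called 28 of 300, and 27 with a pseudocount of 0.1, 18 of 180 at a mean of at least 5 FPKM, 12 of 579 with no minimum and 3 of 299 with 8 embryos; the median ratio ran from -1.42 to -0.19. No called ratio of a member changed sign under these alternatives.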
